A study of Mus musculus with 4 samples.

Results

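Collagen chains are the protein subunits of the collagens and the main ligands of LAIR1, an inhibitory receptor of leukocytes. All genes whose symbol is Col, a number, the letter a and a number were taken, which gave 44 of the 32285 genes measured. They were followed by cell type in 4 single-cell RNA libraries from mouse lung, each made from 3 animals marked with hashtag antibodies and pooled. The groups were WT mice with normal lungs, WT mice whose lungs bore B16/F10 tumors (a mouse melanoma line), LAIR1KO mice with normal lungs, and LAIR1KO mice with B16/F10-bearing lungs. The 2 LAIR1KO groups share the loss of Lair1, and how the allele was made, the strain and the age are not given in the sources used here. Each group is 1 library, so library and group cannot be told apart.

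Collagens are trimers of chains in which glycine recurs at a fixed spacing, often followed by proline and hydroxyproline. LAIR1 binds Gly-Pro-hydroxyproline repeats, so many collagens can act as ligands, and the tissue distribution of the chains sets where a LAIR1-bearing cell meets them. Fibrillar chains build the interstitial fibrils of the lung, type IV chains the basement membranes between capillaries and alveolar epithelium, and type VI chains beaded microfilaments around cells. Smaller groups sit on fibril surfaces, span the plasma membrane, or carry the endostatin-type domains of the multiplexins.

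The ligand motif can be read in the coding sequence, where hydroxyproline is not encoded and appears as proline. A Gly-Pro-Pro triplet is GGNCCNCCN in frame, and it was searched in the longest complete coding sequence of each chain (GENCODE M21, GRCm38) within stretches of at least 5 successive Gly triplets. All 44 chains held at least 1, and they held 1188 in all. Of 21778 protein-coding genes, 0.395% held one, and 42 of those 86 genes were not collagen chains of this set. The stretches below are those with the longest run of successive Gly-Pro-Pro triplets in 7 chains that the results turn on, with the triplets in capitals, read 5′ to 3′ in the sense of the gene. The coordinates include introns where a stretch joins exons. A match describes the sequence and is not a measured LAIR1 binding site.
Col1a1, exons 47 to 48 of 51 (chr11:94950187-94950353, plus strand): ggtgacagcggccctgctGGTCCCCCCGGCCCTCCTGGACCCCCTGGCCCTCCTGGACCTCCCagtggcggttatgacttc
Col3a1, exons 5 to 6 of 51 (chr1:45323780-45325404, plus strand): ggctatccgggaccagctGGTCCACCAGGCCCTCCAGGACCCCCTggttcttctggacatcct
Col4a1, exons 10 to 12 of 52 (chr8:11242206-11244367, minus strand): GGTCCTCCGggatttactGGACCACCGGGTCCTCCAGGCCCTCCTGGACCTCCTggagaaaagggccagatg
Col4a3, exons 21 to 22 of 52 (chr1:82669030-82669679, plus strand): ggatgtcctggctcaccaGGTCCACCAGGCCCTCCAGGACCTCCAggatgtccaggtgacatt
Col6a1, exons 7 to 8 of 35 (chr10:76720970-76721096, minus strand): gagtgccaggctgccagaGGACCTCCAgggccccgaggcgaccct
Col13a1, exon 16 of 41 (chr10:61887285-61887347, minus strand): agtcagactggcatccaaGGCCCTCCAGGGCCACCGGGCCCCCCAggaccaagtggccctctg
Col14a1, exons 41 to 42 of 48 (chr15:55487941-55488474, plus strand): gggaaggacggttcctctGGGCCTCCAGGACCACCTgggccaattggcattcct

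The longest run was 5 triplets in Col1a1 and 4 in Col4a1, against 1 in Col6a1. Over the whole chain, Col1a1 held 46 Gly-Pro-Pro triplets among 355 Gly triplets, Col3a1 41 of 357 and Col1a2 24 of 353. The type IV chains ranged from 16 of 429 in Col4a6 to 72 of 444 in Col4a5. The type VI chains have shorter triple-helical stretches, with 9 of 109 in Col6a1 and 5 of 110 in both Col6a2 and Col6a3. Col14a1 held 10 of 83, and Col13a1 held 21 of 174.

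The libraries held 3295 to 4727 barcodes and 25216301 to 28034709 UMIs in genes, and 15793 of 16350 barcodes passed the cell filter. A single hashtag was assigned to 8468 cells, 1770 to 2400 per library, and these carry every comparison between groups. In the interstitial macrophage-like cells, Lair1 was at 109 to 142 CPM (UMIs per 1000000 UMIs) in the WT normal animals and at 176 to 222 in the WT tumor-bearing animals. Lair1 was at 0 in 5 of the 6 LAIR1KO animals and at 0.62 (1 UMI) in the other. The WT normal animals held 185 to 202 CPM of Ddx3y, a Y-linked gene, and at most 0.46 of Xist, while the other 9 held at most 0.97 of Ddx3y and 1120 to 1374 of Xist. Genotype in normal lung, tumor in WT and the interaction of genotype and tumor therefore also compare animals that differ in these markers of sex. Fibroblast-like cells made up 2.45 to 8.93% of assigned cells in LAIR1KO normal animals, against 10.8 to 22.3% in the other 9. Hashtags were missing from 52.5 to 66.9% of fibroblast-like cells and from 2.06 to 19.8% of neutrophil-like cells. Pairs of libraries shared 3 to 7 barcodes. The LAIR1KO normal library stood apart: it gave 394 of the 492 cells of a cluster with markers of several classes, which was left unnamed. In endothelial cell- and alveolar type 2-like cells, chain results that rest on this library are given with and without cells that hold another lineage's markers. Results for the related gene lists are given only with those cells.

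Collagen chains gave 388642 UMIs in the filtered cells, 0.370% of all UMIs in genes. The kit tags the 3′ end of each mRNA, so UMIs do not scale with gene length and chains can be set side by side as CPM, the UMIs of a gene per 1000000 UMIs of a cell class. Col3a1 (76742 UMIs), Col1a2 (62191) and Col1a1 (62018) made up 51.7% of the total. They were followed by Col4a1 (29042), Col6a1 (26087), Col6a3 (22554), Col6a2 (22478) and Col4a2 (16458). In all, 22 chains reached 1000 UMIs, down to Col15a1 (1408). Another 13 chains had at least 50 but under 1000 UMIs: Col2a1, Col4a6, Col7a1, Col8a1, Col8a2, Col9a1, Col9a2, Col9a3, Col11a1, Col11a2, Col17a1, Col20a1 and Col28a1. Below that, 8 had 3 to 40 UMIs: Col6a4, Col6a5, Col6a6, Col19a1, Col22a1, Col24a1, Col25a1 and Col26a1. Col10a1, a chain of hypertrophic cartilage, had 0 UMIs.

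Fibroblast-like cells were the main source. They were named from Pdgfra, Tcf21, Mfap4 and other fibroblast markers, with collagen genes left out of the clustering, and they held 81.7% of the chain UMIs (95% exact binomial interval 81.5 to 81.8%) with 25.6% of the cells and 31.5% of the gene UMIs. This share counts all filtered cells except hashtag doublets, and the intervals cover counting error only. Fibroblast-like cells held 87.1 to 88.5% of chain UMIs in the other 3 libraries and 54.0% in LAIR1KO normal, where cells left unnamed because they held markers of several classes held 18.8%. Alveolar type 2-like cells held 4.04%, endothelial cell-like cells 3.37% and alveolar type 1-like cells 1.29%. In bulk over all assigned cells of an animal, all chains together came to 2692 to 4728 CPM, and the lowest and highest LAIR1KO tumor-bearing animals (2692 and 4721) nearly spanned that range.

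**Figure D1:**
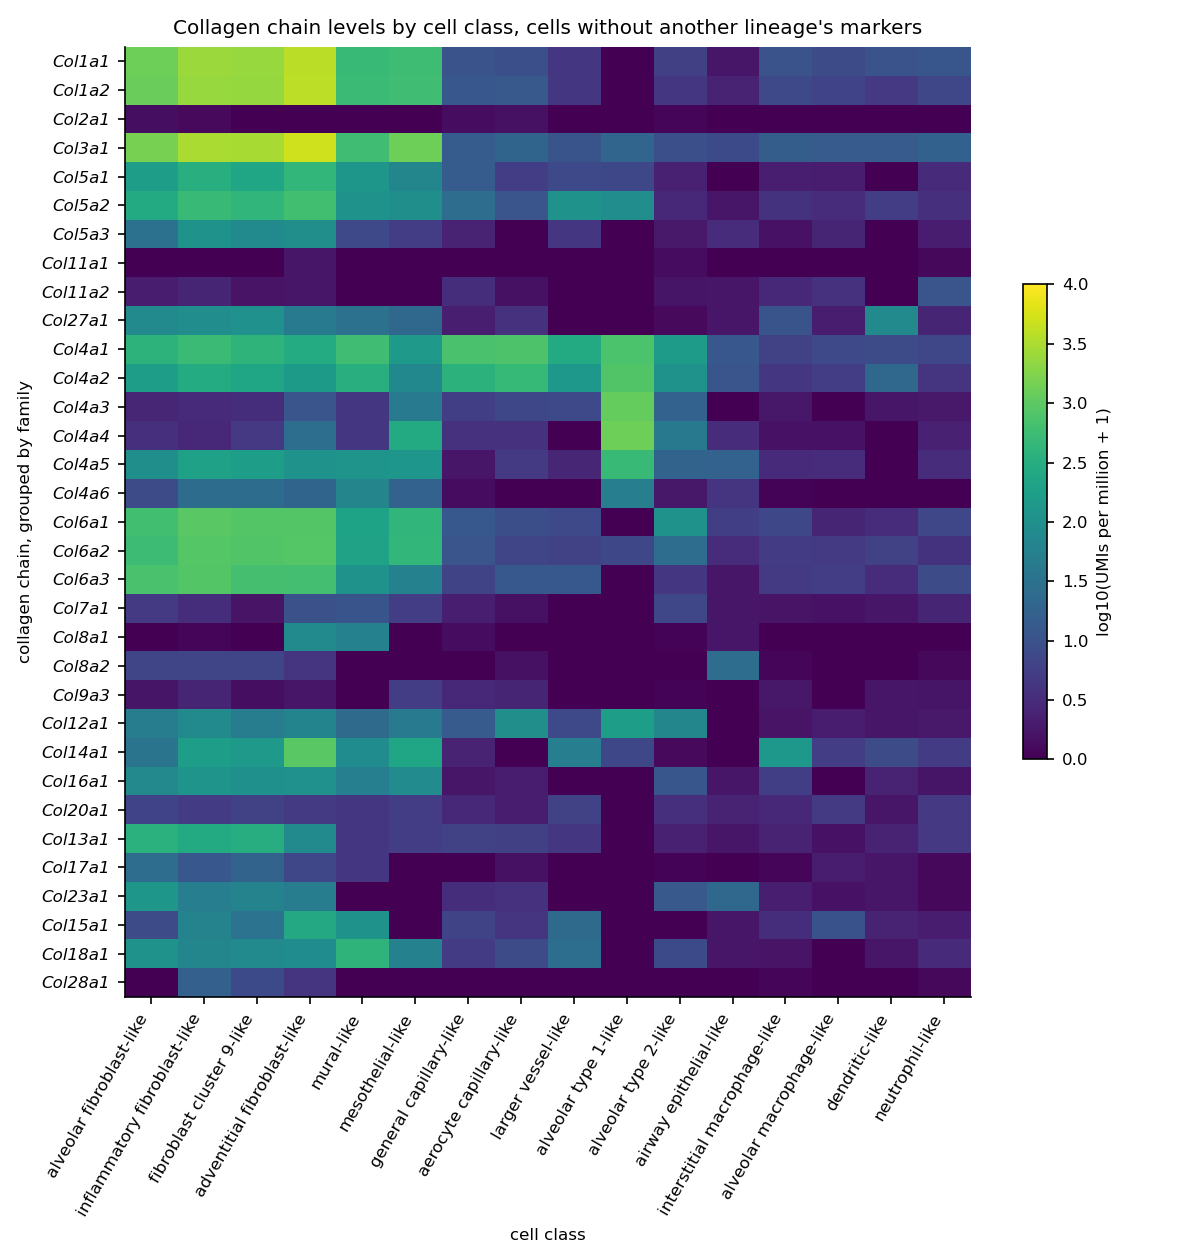
Level of each chain (rows, 33 chains) in each cell class (columns, 16 classes) as log10 of CPM plus 1, with the 4 libraries pooled and cells that held another lineage's markers left out. Brighter colors mark higher levels. The fibrillar and type VI chains are brightest in fibroblast-like cells, and Col4a1 and Col4a2 spread over stromal, endothelial and epithelial classes. Cells of the other classes were left out in part by fibroblast markers, so low fibroblast chains there follow in part from the step. Col4a3 and Col4a4 are brightest in alveolar type 1-like cells, and Col14a1 stands out in interstitial macrophage-like cells.

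The fibrillar chains came mainly from fibroblast-like cells. These held 89.6% of Col1a1, 88.8% of Col1a2 and 89.5% of Col3a1, the chains of type I and type III collagen. They also held 87.3% of Col5a1 and 86.5% of Col5a2, type V chains that set fibril diameter. Among 12 animals, fibroblast-like Col3a1 was 2992 ± 601 CPM (SD, n = 12), Col1a2 2359 ± 371 and Col1a1 2344 ± 469. Col1a1 and Col1a2 stood at nearly equal levels (ratio 0.991 ± 0.078, n = 12), although the type I trimer holds more of the first chain than of the second. The ratio of Col5a2 to Col5a1 was 1.66 ± 0.28. Col27a1, a fibrillar chain known from cartilage, had a wider spread of sources: fibroblast-like cells held 74.0%, interstitial macrophage-like cells 4.53% and dendritic cell-like cells 4.06%. Its level in dendritic cell-like cells was 80.1 CPM (111 UMIs, without cells holding another lineage's markers), beside 89.0 in fibroblast-like cells.

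Fibroblast-like Col3a1 was 2616, 3400 and 3100 CPM in WT normal animals and 2881, 3048 and 2432 in WT tumor-bearing animals. It was 4212, 3376 and 2388 in LAIR1KO normal animals and 2672, 2115 and 3668 in LAIR1KO tumor-bearing animals. The 4 groups overlapped, and the highest value came from an animal with only 16 fibroblast-like cells. Fibroblast-like Col1a2 was 2061, 2723 and 2211 (WT normal), 2393, 2262 and 2151 (WT tumor-bearing), 3245, 2458 and 2031 (LAIR1KO normal) and 2253, 1887 and 2637 (LAIR1KO tumor-bearing). Fibroblast-like Col1a1 was 1878, 2395 and 2117, then 2099, 2355 and 2202, then 3567, 2311 and 2055, then 2302, 1939 and 2913 in the same order. For these chains too the groups overlapped, and the same small animal was highest.

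The fibroblast-like cells split into subtypes that differed in their chains. Alveolar fibroblast-like cells (Npnt, Itga8, Tcf21; 1438 filtered cells) had Col3a1 at 1450 ± 305 CPM (n = 11). Inflammatory fibroblast-like cells (1011 filtered cells) had 3233 ± 665 (n = 11), and adventitial fibroblast-like cells (Pi16, Dcn, Ly6a; 230 filtered cells) 5347 ± 327 (n = 3). A further fibroblast-like cluster of 662 cells, cluster 9, had 3019 ± 598 (n = 9). In the libraries, adventitial Col3a1 was 6158, 4307, 2920 (11 cells) and 5137 and alveolar Col3a1 was 1350, 1586, 1484 and 1450, in the order of the groups given above. The subtypes were clustered from these cells, so the levels are a description with no test.

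Several smaller chains marked the subtypes in opposite directions. Col13a1, a transmembrane collagen of cell-matrix junctions, was at 330 ± 52.1 CPM in alveolar, 264 in inflammatory and 52.9 ± 38.9 in adventitial fibroblast-like cells. Col23a1, another transmembrane chain, was at 94.8 ± 27.5 in alveolar and 49.1 in inflammatory cells. Col14a1, a fibril-associated chain, ran the other way, from 31.05 ± 19.8 in alveolar over 198 ± 41.4 in inflammatory to 946 ± 264 in adventitial cells. In the libraries, adventitial Col14a1 was 859 (WT normal), 1341 (WT tumor-bearing), 832 (LAIR1KO normal, 11 cells) and 847 (LAIR1KO tumor-bearing), and alveolar Col14a1 was 27.6, 46.1, 25.6 and 31.3. Col15a1, a multiplexin of vessel and nerve basement membrane zones, was at 6.34 in alveolar, 63.7 in inflammatory and 328 ± 192 in adventitial cells. Col17a1, known from hemidesmosomes of epithelia, was at 29.2 ± 18.9 in alveolar fibroblast-like cells, and fibroblast-like cells held 79.2% of its UMIs. Col28a1 was at 0 in alveolar cells of all 4 libraries and at 24.9, 11.5, 23.7 and 9.19 in inflammatory cells, and fibroblast-like cells held 95.6% of its 203 UMIs.

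**Figure D2:**
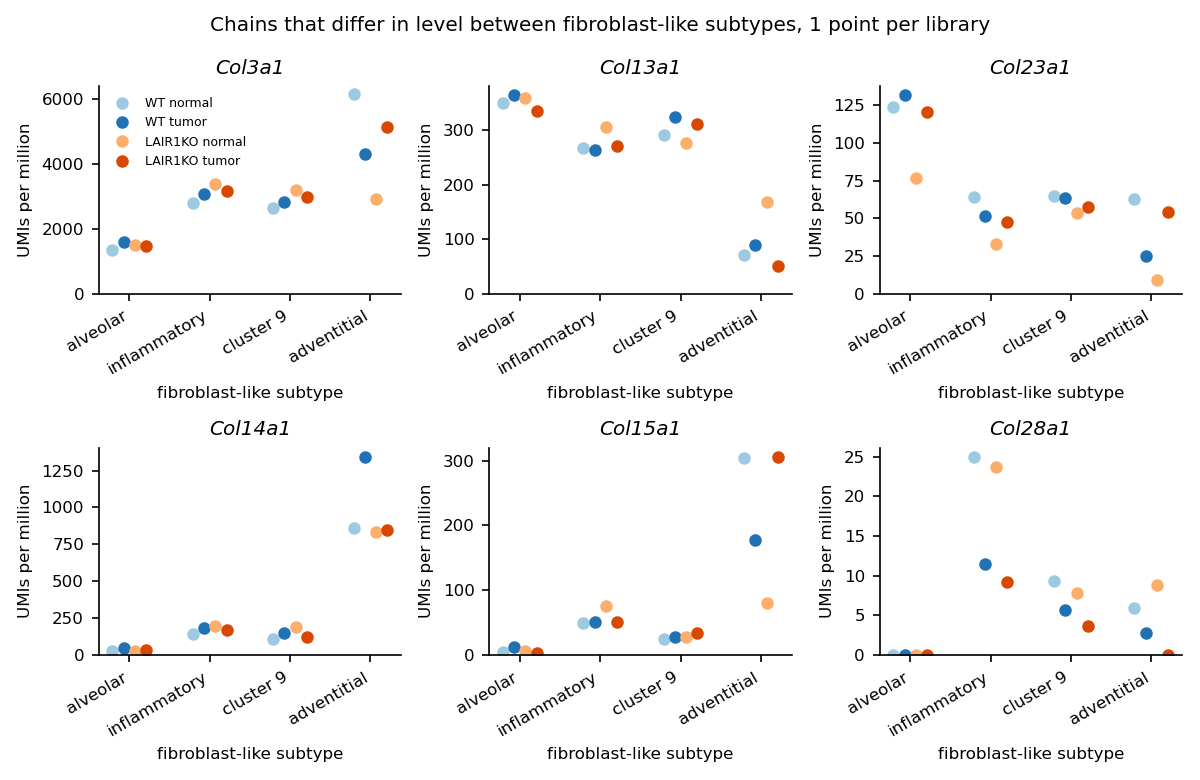
CPM of 6 chains (panels) in 4 fibroblast-like subtypes (x axis), with 1 point per library. Adventitial fibroblast-like cells sit highest for Col14a1 (832 to 1341) and lowest for Col13a1, and alveolar fibroblast-like cells sit lowest for Col14a1 (25.6 to 46.1).

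Type IV chains divided by cell type. Col4a1 and Col4a2, which form the common basement membrane trimer, are transcribed head to head on chromosome 8, with starts 21 bases apart. Fibroblast-like cells held 50.5% of Col4a1, endothelial cell-like cells 21.6%, alveolar type 2-like cells 11.6% and alveolar type 1-like cells 2.95%. For Col4a2 the shares were 46.7%, 21.6%, 13.7% and 5.04%. The ratio of Col4a1 to Col4a2 was 1.74 ± 0.26 in fibroblast-like, 1.77 ± 0.096 in endothelial cell-like and 1.62 ± 0.54 in alveolar type 2-like cells (n = 12 each). As a level, Col4a1 was at 640 ± 104 CPM in endothelial cell-like cells, above 411 ± 53.2 in fibroblast-like and 199 ± 42.4 in alveolar type 2-like cells. Mural cell-like cells (pericyte and smooth muscle markers) had 748 ± 180 (n = 3), with 762 in 1 WT tumor-bearing animal and 920 and 561 in 2 LAIR1KO normal animals. Of the LAIR1KO normal mural cell-like cells 94.6% held another lineage's markers, and in those 2 animals the endothelial list summed to 69.1 to 85.1 and the fibroblast list to 52.5 to 118 UMIs per 10000. In the 42 mural cell-like cells without such markers, of which 20 were assigned to an animal, Col4a1 was at 601 CPM (183 UMIs).

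Col4a3 and Col4a4 belong to the second basement membrane trimer, which is completed by Col4a5, and they are also a head-to-head pair, on chromosome 1 with starts 72 bases apart. Alveolar type 1-like cells, flat gas-exchange cells named from Ager, Hopx and Rtkn2, held 63.2% of Col4a3 (interval 60.3 to 66.1%) and 48.8% of Col4a4 while making up 1.23% of the cells. Alveolar type 2-like cells held another 21.01% and 34.3%, and mesothelial cell-like cells 2.44% and 7.03%. In the 4 animals with at least 10 alveolar type 1-like cells, Col4a4 was 750 in a WT tumor-bearing animal and 568, 556 and 516 in the LAIR1KO normal animals. Col4a3 was 556, then 453, 605 and 470, and Col4a1 was 500, then 469, 432 and 526. Most alveolar type 1-like cells also held markers of another lineage, and 39 cells were left without them. Those 39 cells had Col4a4 at 1296 CPM (202 UMIs), Col4a3 at 1123 (175 UMIs) and Col4a5 at 488, each above its value in all assigned cells. Only 19 of the 39 were assigned to an animal, so the sets also differ in cells with no hashtag.

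The partner chain Col4a5 had most of its UMIs elsewhere. Such shares follow the size of a class (3341 filtered fibroblast-like and 259 alveolar type 1-like cells) as well as its level. They do not place Col4a5 lower in alveolar type 1-like cells. Fibroblast-like cells held 77.5% of Col4a5, alveolar type 2-like cells 6.85% and alveolar type 1-like cells 5.62%. Its X-linked neighbour Col4a6, with a start 1309 bases away, followed the same source: fibroblast-like cells held 81.9%, mural cell-like cells 5.67% and alveolar type 1-like cells 4.26%. Mesothelial cell-like cells, the lining of the pleura, were few (17 cells without another lineage's markers) and had Col3a1 at 1301 CPM (305 UMIs), Col4a4 at 277 (65 UMIs) and Col4a3 at 42.7.

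The type VI chains were again mainly from fibroblast-like cells, which held 82.0% of Col6a1 and 85.4% of Col6a3. Their fibroblast-like levels in CPM were 877 ± 161 (Col6a1), 828 ± 187 (Col6a2) and 777 ± 149 (Col6a3). The trimer holds these 3 chains together, and their ratios to Col6a2 in fibroblast-like cells were 1.07 ± 0.093 for Col6a1 and 0.948 ± 0.097 for Col6a3. In alveolar type 2-like cells the chains were unequal. After cells with another lineage's markers were left out, Col6a1 was at 110 CPM (1259 UMIs), Col6a2 at 26.2 (299 UMIs) and Col6a3 at 3.2. The ratio of Col6a1 to Col6a2 was 4.21 in those cells and 2.81 ± 1.26 (n = 12) in all assigned alveolar type 2-like cells. The first value pools 1170 cells, of which 500 were assigned to an animal, and the second is a mean over animals. The sets thus differ in cells with no hashtag as well as in mixed cells.

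Fibril-associated chains differed in their sources. Col12a1 was split between fibroblast-like (48.9%), alveolar type 2-like (30.9%) and endothelial cell-like cells (10.0%). Among the endothelial subtypes, Col12a1 was at 83.5 ± 18.7 CPM (n = 11) in aerocyte capillary endothelial-like cells (Car4, Ednrb) and at 12.7 ± 9.86 (n = 12) in general capillary endothelial-like cells (Gpihbp1, Plvap). Col4a1 was nearly level between them, at 693 ± 119 and 681 ± 136. Larger vessel endothelial-like cells (Vwf, Vcam1) had Col5a2 at 209, 112, 141 and 96.8 in the 4 libraries. Col14a1 was held by fibroblast-like cells (63.4%, interval 62.2 to 64.6%) and interstitial macrophage-like cells (26.8%, interval 25.8 to 27.9%). Col16a1 was 80.4% fibroblast-like.

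Of the remaining chains, the multiplexin Col18a1, the precursor of endostatin, was 71.3% fibroblast-like and 6.09% mural cell-like. In 42 mural cell-like cells without another lineage's markers it was at 400 CPM (122 UMIs), and over all mural cell-like cells the libraries ran from 49.2 to 494. Col15a1 was 84.1% fibroblast-like, and Col13a1 82.5%. Col7a1, the chain of anchoring fibrils, was divided between alveolar type 2-like (40.2%) and fibroblast-like cells (33.3%), over 204 UMIs. Col8a1, a short-chain network collagen, was 52.6% fibroblast-like and 19.5% mural cell-like over 215 UMIs, and Col8a2 was 67.2% fibroblast-like and 17.4% airway epithelial-like over 195 UMIs.

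The cartilage collagens came from a handful of cells, which were set apart by a sub-clustering chosen after seeing the data. A sub-cluster of 5 cells, led by Cytl1, Chad, Snorc, Acan and Comp, held 637 of the 652 Col2a1 UMIs, 72 of 72 for Col9a1, 84 of 85 for Col9a2 and 235 of 246 for Col11a1. It also held 76 of 171 Col9a3 UMIs and 207 of 461 Col11a2 UMIs. Col2a1 is the main fibrillar chain of cartilage, and Col9 and Col11 chains coat and copolymerise with its fibrils. All 5 cells held Col2a1, from 12 to 479 UMIs, and none held Col1a1. They came from 3 libraries, 2 cells each from WT normal and WT tumor-bearing and 1 from LAIR1KO tumor-bearing.

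Leukocytes other than the macrophages and dendritic cells above held few chain UMIs. In neutrophil-like cells all chains together came to 103 ± 25 CPM (n = 12), against 12839 ± 2164 in fibroblast-like cells. A Col14a1 UMI was seen in 36.3% of interstitial macrophage-like cells (median 5346 UMIs per cell) and in 0.548% of neutrophil-like cells (median 1619). In alveolar macrophage-like cells the share was 4.78% (median 8680), in monocyte-like cells 1.76% (median 4617) and in fibroblast-like cells 44.6% (median 8009). The depths differ and cells were not thinned to 1 depth, but the deeper alveolar macrophage-like cells stood below the interstitial ones. The level was 134 ± 49.6 CPM in interstitial macrophage-like cells and 3.12 ± 3.74 in neutrophil-like cells. Fibroblast markers in the interstitial macrophage-like cells were at 5.70 (Pdgfra), 2.68 (Tcf21), 19.3 (Npnt) and 23.0 CPM (Mfap4). In fibroblast-like cells they were at 747, 293, 2019 and 1951. Col3a1 and Col1a1, the next chains in the interstitial macrophage-like cells, were at 15.3 and 9.84. Carry-over of fibroblast RNA was not tested.

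The first question across groups was whether fibroblast-like cells made different amounts of any chain without LAIR1 or with a tumor. UMIs were summed per animal and class and tested with edgeR's quasi-likelihood test, with Benjamini-Hochberg adjustment over all genes and a threshold of 0.05. In bulk sums of a class, fewer cells of a kind and less RNA per cell cannot be told apart. In fibroblast-like cells 23 chains could be tested, and none was called in any of 5 contrasts: genotype in normal lung, genotype in tumor-bearing lung, tumor in WT, tumor in LAIR1KO, and the interaction of genotype and tumor. Of all 8144 genes tested, 0.258%, 0.0%, 0.221%, 0.0982% and 0.0123% were called in that order. The smallest adjusted p-values from edgeR among the chains were 0.551 (Col6a2), 0.99005 (Col15a1), 0.740 (Col23a1), 0.607 (Col28a1) and 0.516 (Col23a1). At an unadjusted p under 0.05 there were 3, 2, 0, 2 and 2 chains, and DESeq2 called 0 in each contrast.

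For the most abundant chains the intervals bound the changes. Col1a1 differed between LAIR1KO and WT by 0.25 ± 0.15 on the log2 scale in normal lung (estimate ± SE; 95% interval -0.07 to 0.57) and by 0.16 ± 0.15 in tumor-bearing lung (-0.15 to 0.48). Col1a2 differed by 0.09 (-0.20 to 0.39) and 0.05 (-0.23 to 0.34). Col3a1 differed by 0.08 (-0.28 to 0.44) and 0.08 (-0.28 to 0.43). Between tumor-bearing and normal lung Col1a1 differed by 0.02 in WT (-0.30 to 0.34) and -0.07 in LAIR1KO (-0.39 to 0.25). The median over the 23 chains was 0.13, 0.05, 0.00, -0.11 and -0.07 in the 5 contrasts, and over all genes it was between -0.01 and 0.00. Col4a5, an X-linked chain, differed by 0.34 for genotype in normal lung (edgeR adjusted p = 0.648), where the groups also differ in the sex markers.

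Some less abundant chains had larger estimates that did not pass the test. Col4a1 was 418, 444 and 431 CPM in normal lungs of WT, 326, 449 and 338 in WT lungs with tumor, 450, 387 and 342 in normal lungs of LAIR1KO and 399, 466 and 485 in LAIR1KO lungs with tumor. Its interaction estimate was 0.51 ± 0.19 (unadjusted p = 0.013 in edgeR's fit). Col23a1 was 70.4, 83.1 and 68.1, then 73.2, 48.5 and 57.2, then 67.5, 51.2 and 42.8, then 61.0, 75.9 and 77.5 in the same order, with an interaction of 0.88 ± 0.29. Col15a1 differed by 0.77 ± 0.28 between LAIR1KO and WT tumor-bearing lung, and Col28a1 by -1.89 ± 0.63 with tumor in LAIR1KO. For Col4a1 the groups overlapped, and for Col23a1 the LAIR1KO normal values lay below all WT normal values.

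**Figure D3:**
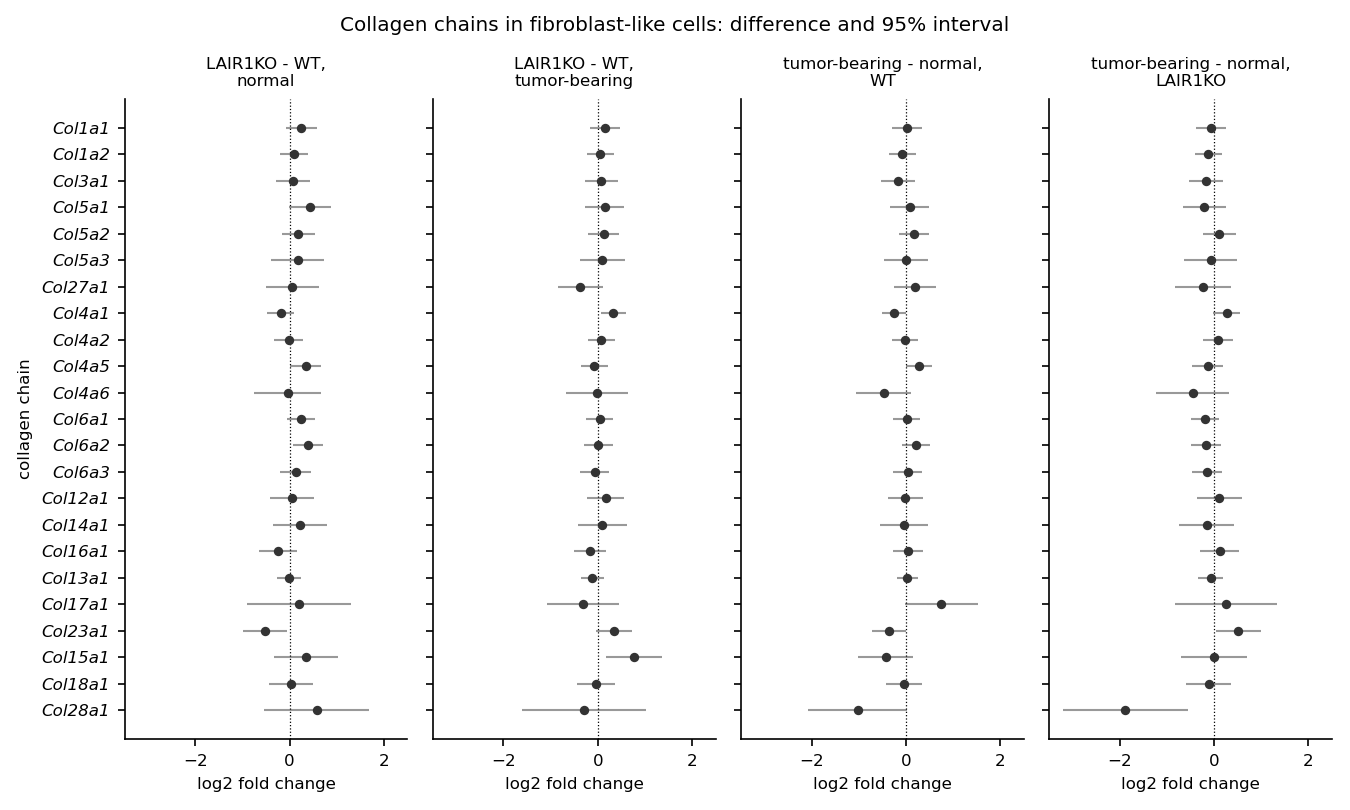
Log2 fold change of 23 chains (rows) in fibroblast-like cells for 4 contrasts (panels), with points for estimates and bars for 95% intervals. No chain passed the adjusted threshold, and the estimates for Col1a1, Col1a2 and Col3a1 lie between -0.17 and 0.25.

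The 2 largest fibroblast-like subtypes gave the same count. In alveolar fibroblast-like cells 20 chains were tested and 0 called, beside 0.27%, 0.0%, 0.155%, 0.328% and 0.0966% of all genes in the 5 contrasts, and 1, 1, 6, 4 and 2 chains had an unadjusted p under 0.05. In inflammatory fibroblast-like cells 22 chains were tested and 0 called, beside 0.0726%, 0.0%, 0.181%, 0.0% and 0.0181%, and 1, 2, 1, 1 and 2 chains had an unadjusted p under 0.05. In alveolar fibroblast-like cells Col4a1 had an interaction of 0.98 ± 0.31, with an edgeR adjusted p of 0.463. Genes that build, cut, bind or sense collagen were tested in the same fit. Of the folding and modification list 19 of 21 genes were tested, of propeptide cleavage and crosslinking 8 of 13, of small leucine-rich fibril partners 8 of 11, of basement membrane partners 12 of 17, of collagen receptors 6 of 13 and of other LAIR1 ligands 2 of 6. None was called in any contrast by edgeR. The median of the folding list, prolyl and lysyl hydroxylases and chaperones, lay between 0.01 and 0.08 on the log2 scale in the 5 contrasts. That of the leucine-rich partners, such as Dcn and Lum, ranged from -0.36 for genotype in normal lung to 0.63 for the interaction.

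In endothelial cell-like cells, Col4a1 and Col4a2 were the leading chains. Col4a1 was 521, 578 and 562 CPM in normal lungs of WT, 748, 823 and 602 in WT lungs with tumor, 637, 564 and 534 in normal lungs of LAIR1KO and 701, 607 and 806 in LAIR1KO lungs with tumor. In WT all tumor-bearing values stood above all normal ones, whereas in LAIR1KO the groups overlapped. The log2 difference with tumor was 0.35 ± 0.14 in WT (edgeR adjusted p = 0.581) and 0.25 ± 0.13 in LAIR1KO (edgeR adjusted p = 0.554). Col4a2 was 288, 337 and 320, then 410, 428 and 385, then 354, 307 and 284, then 403, 358 and 473. Its difference with tumor was 0.34 in WT and 0.35 ± 0.14 in LAIR1KO (edgeR adjusted p = 0.643 and 0.322).

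Of the 14 chains tested in endothelial cell-like cells, 7 fell with tumor in LAIR1KO and 1, Col1a1, was higher in LAIR1KO than in WT normal lung. No chain was called in the other 3 contrasts. Of all 7087 genes, 0.691%, 0.0%, 0.0706%, 1.58% and 0.0282% were called in the 5 contrasts, and 7, 1, 5, 10 and 1 chains had an unadjusted p under 0.05. The median over the 14 chains was -1.97 with tumor in LAIR1KO and 0.00 over all genes. Without LAIR1KO tumor-bearing replicate 2, 1 chain was called in that contrast, and without LAIR1KO normal replicate 1, 7 were called for genotype in normal lung, against 0 without LAIR1KO normal replicate 2 or 3 or WT normal replicate 1 or 3. The chains not called with tumor in LAIR1KO were Col4a1, Col4a2, Col5a1 (-1.16 ± 0.53), Col5a2 (-0.65 ± 0.33), Col12a1, Col18a1 and Col23a1. Col1a2 was 64.5, 98.1 and 129 CPM in normal lungs of WT, 33.2, 33.2 and 35.4 in WT lungs with tumor, 89.9, 208 and 262 in normal lungs of LAIR1KO and 18.6, 34.0 and 32.4 in LAIR1KO lungs with tumor. All LAIR1KO normal values exceeded all LAIR1KO tumor-bearing values. Its log2 change with tumor was -2.51 ± 0.40 (edgeR adjusted p = 0.00213). Col6a1 changed by -2.05 ± 0.39, Col3a1 by -2.18 ± 0.42, Col6a2 by -2.57 ± 0.50, Col6a3 by -2.36 ± 0.47, Col1a1 by -1.89 ± 0.40 and Col13a1 by -2.32 ± 0.50, with edgeR adjusted p from 0.00623 to 0.0164. In genotype in normal lung Col1a1 changed by 1.76 ± 0.38 (edgeR adjusted p = 0.0284), from 38.7, 56.1 and 53.3 in WT to 83.7, 214 and 230 in LAIR1KO.

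Other fibroblast markers moved with these chains. The fibroblast marker list, of which 18 of 18 measured genes were detected in the endothelial cell-like cells, summed to 34.9 to 64.6 UMIs per 10000 in LAIR1KO normal animals and to 7.38 to 26.99 in the other 9. Cells that held another lineage's markers made up 36.9% of LAIR1KO normal endothelial cell-like cells and 6.5 to 12.1% in the other groups. After they were left out, a step chosen after seeing the data, Col1a2 was 12.9, 13.5 and 20.02, then 19.0, 3.6 and 26.5, then 8.5, 10.7 and 0, then 13.1, 10.5 and 3.1. The LAIR1KO normal values then lay below all WT normal values and overlapped those of LAIR1KO with tumor. Col4a1, Col4a2, Col5a2 and Col12a1 passed the filter on low counts, whereas the 7 chains called before were not tested. None of the 4 was called by edgeR, beside 8, 0, 14, 2 and 2 of 5744 genes in the order of contrasts given above. With so few genes called, the absence of a call says little about these chains. Col4a1 was little altered by this step, at 493, 617 and 548, then 819, 850 and 626, then 649, 670 and 591, then 721, 630 and 852, with a tumor difference in WT of 0.44 ± 0.14 (edgeR adjusted p = 0.433).

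Of the related gene lists in endothelial cell-like cells, some had members that fell with tumor in LAIR1KO, where 1.58% of all genes were called. None of 13 folding and modification genes tested (median 0.10) and none of 10 basement membrane partners (median -0.05) was called by edgeR. In the same contrast 3 of 5 propeptide and crosslinking genes fell, Pcolce2 by 1.99, Loxl1 by 2.99 and Pcolce by 2.46 on the log2 scale. Pcolce and Pcolce2 enhance procollagen cleavage, and Loxl1 is a crosslinking oxidase. All 3 small leucine-rich partners tested fell, Ogn by 1.97, Bgn by 1.51 and Prelp by 1.64. Of 7 receptors tested 1 fell, the collagen uptake receptor Mrc2, by 2.64, and of 4 other LAIR1 ligands 1 fell, the scavenger receptor Colec12, by 1.78. The marker sums above moved with these genes too, and Loxl1 is itself in the fibroblast list.

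Alveolar type 2-like cells, the surfactant-producing cells named from Sftpc and Lamp3, had Col4a1 as their leading chain at 167, 216 and 178 CPM in normal lungs of WT, 176, 207 and 167 in WT lungs with tumor, 240, 265 and 212 in normal lungs of LAIR1KO and 264, 130 and 165 in LAIR1KO lungs with tumor. Next came Col3a1 (172 ± 166) and Col1a2 (163 ± 156), whose spread was nearly as large as their mean. Col3a1 ranged from 7.20 to 531 and Col1a2 from 4.25 to 488 over the 12 animals. Without cells holding another lineage's markers, Col1a2 was at 3.24 in these cells, pooled over assigned cells and cells with no hashtag. That step was chosen after seeing the data and was made in part on fibroblast markers.

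Of 18 chains tested in alveolar type 2-like cells, 7 were higher in LAIR1KO than in WT normal lung, 2 fell with tumor in LAIR1KO and 2 had a negative interaction. No chain was called for genotype in tumor-bearing lung or tumor in WT. Of all 8007 genes, 9.13%, 0.0%, 0.162%, 6.27% and 2.41% were called in the 5 contrasts, and 11, 1, 4, 2 and 6 chains had an unadjusted p under 0.05. The median over the 18 chains was 1.43 for genotype in normal lung and 0.01 over all genes. The class joins clusters 3 and 16, and cluster 16 gave 56 of the 104 LAIR1KO normal cells, against 22 of 193 in normal lungs of WT, 22 of 227 in WT lungs with tumor and 12 of 121 in LAIR1KO lungs with tumor. Of the 112 cells of cluster 16, 1 was free of another lineage's markers. Without LAIR1KO normal replicate 2 or 3 or WT normal replicate 3, 4 chains were called for genotype in normal lung. Leaving out 1 animal gave 1 to 4 calls with tumor in LAIR1KO (4 without LAIR1KO tumor-bearing replicate 1, and 1 without any of LAIR1KO normal replicates 2 and 3 and LAIR1KO tumor-bearing replicates 2 and 3), and 0 to 5 for the interaction (5 without LAIR1KO tumor-bearing replicate 1, at most 1 without any of the others but LAIR1KO normal replicate 1). Col13a1 was 11.3, 9.42 and 2.12 CPM in normal lungs of WT, 14.6, 9.66 and 6.02 in WT lungs with tumor, 56.3, 67.7 and 84.6 in normal lungs of LAIR1KO and 25.3, 0 and 10.1 in LAIR1KO lungs with tumor. LAIR1KO normal did not overlap the other groups. Its log2 change was 3.17 ± 0.43 for genotype in normal lung (edgeR adjusted p = 0.00031) and -2.40 ± 0.48 with tumor in LAIR1KO (edgeR adjusted p = 0.00606).

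The other chains called for genotype in normal lung in these cells were of several kinds. Col5a2 changed by 3.55 ± 0.65, Col6a3 by 3.37 ± 0.69, Col18a1 by 2.28 ± 0.49, Col5a1 by 2.89 ± 0.73, Col6a2 by 1.54 ± 0.42 and Col1a1 by 2.36 ± 0.69, with edgeR adjusted p from 0.00199 to 0.0393. Col5a2 was 4.23, 6.28 and 2.12 in WT normal animals and 22.5, 59.8 and 68.9 in LAIR1KO normal animals. Col18a1 was 4.23, 8.38 and 5.31 in normal lungs of WT, 14.6, 18.1 and 8.43 in WT lungs with tumor, 22.5, 37.9 and 32.9 in normal lungs of LAIR1KO and 0, 0 and 11.6 in LAIR1KO lungs with tumor. With tumor in LAIR1KO Col18a1 changed by -2.12 ± 0.59 (edgeR adjusted p = 0.0401). The interaction was -3.19 ± 0.80 for Col18a1 and -3.47 ± 0.88 for Col5a2 (edgeR adjusted p = 0.0462 and 0.0488).

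The marker sums differed in the same animals. The fibroblast list, with 18 of 18 measured genes detected, summed to 28.2 to 69.4 UMIs per 10000 in LAIR1KO normal, 10.96 to 25.1 in normal lungs of WT, 20.5 to 35.1 in WT tumor-bearing and 9.9 to 57.9 in LAIR1KO tumor-bearing alveolar type 2-like cells. The endothelial list summed to 12.2 to 20.99 in LAIR1KO normal and 1.4 to 5.5 in the other groups. Cells with another lineage's markers made up 61.5% of the LAIR1KO normal cells and 12.4 to 17.6% elsewhere. Without them 10 chains were tested and none called, beside 9, 1, 11, 11 and 3 of 7631 genes in the order of contrasts given above. Of the 7 chains called before, Col13a1, Col5a2, Col6a3, Col5a1 and Col1a1 no longer passed the filter on low counts and so were not tested. Col18a1 was then at 1.73 ± 0.91 for genotype in normal lung, -1.66 ± 1.02 with tumor in LAIR1KO and -2.91 ± 1.20 for the interaction (edgeR adjusted p = 0.790, 0.840 and 0.682), and Col6a2 at 0.35 ± 0.57 for genotype in normal lung. Col13a1 was then at 5.35, 1.29 and 2.32 in WT normal, 12.8 and 0 in the 2 LAIR1KO normal animals with at least 10 cells left, and at most 1.66 in the tumor-bearing animals. Col6a1, which was not called, was 116, 120 and 120 in WT normal, 132, 140 and 107 in WT lungs with tumor, 177, 205 and 210 in normal lungs of LAIR1KO and 300, 101 and 130 in LAIR1KO lungs with tumor. Without those cells it was 109, 106 and 118, then 94.3, 122 and 84.3, then 122 and 93.0, then 86.2, 99.3 and 113.

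**Figure D4:**
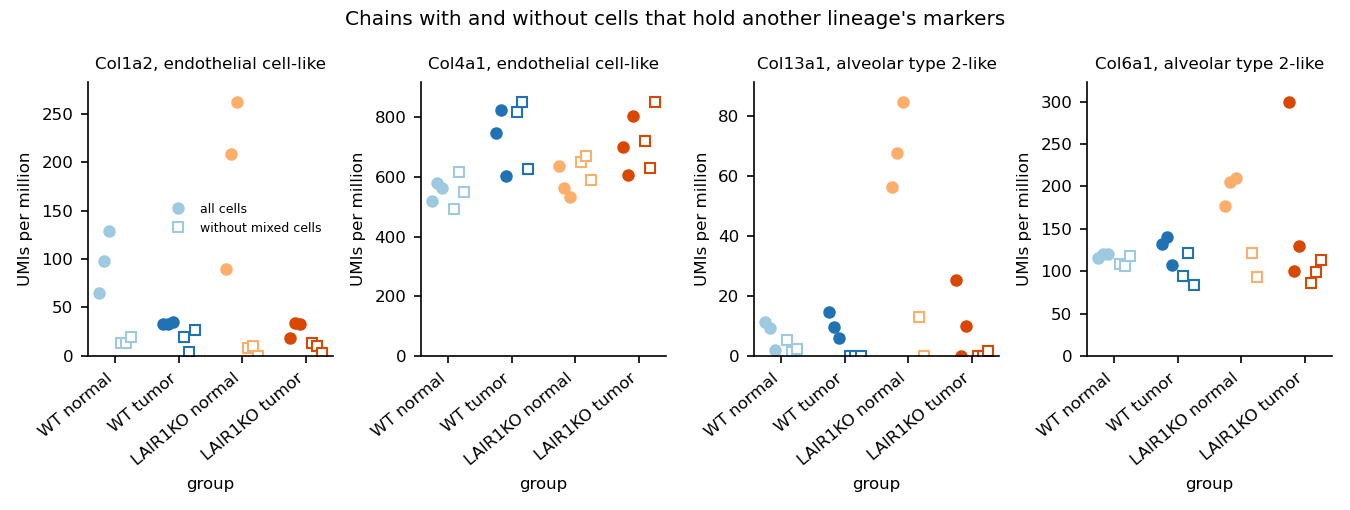
CPM of Col1a2 and Col4a1 in endothelial cell-like cells and of Col13a1 and Col6a1 in alveolar type 2-like cells, by group, with 1 point per animal. Filled circles are all assigned cells and open squares leave out cells that held another lineage's markers: Col1a2 and Col13a1 drop to at most 26.5 and 12.8, while Col4a1 stays between 493 and 852. The cells left out were picked in part by fibroblast markers, so a fall in fibroblast chains follows from the step.

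In alveolar type 2-like cells, 9.13% of all genes were called for genotype in normal lung, the contrast in which the fibroblast and endothelial marker sums and the share of cells with another lineage's markers also differed. Of 15 folding genes 2 rose, a share near that of all genes (Plod2, a lysyl hydroxylase, by 3.29 and P3h3 by 2.65 on the log2 scale). Of 6 propeptide and crosslinking genes 4 rose, among them the crosslinking enzyme Lox by 3.18, Pcolce2 by 2.49 and Pcolce by 1.59, and 1 fell. Of 13 basement membrane partners 4 rose, including Lama4 by 3.29, Nid1 by 1.75 and Lamc1 by 1.24, and 1 fell. Of 4 leucine-rich partners tested 2 rose, Prelp and Ogn, by 2.78 and 2.91. Of 7 receptors 5 rose, including the collagen-binding integrin subunit Itga1 by 1.31, and 1 fell. Of 5 other LAIR1 ligands tested 1 rose, Colec12, by 2.72, and 1 fell. The latter was Sftpd, the collagen-domain surfactant protein made by these cells, which changed by -0.49 ± 0.13 (edgeR adjusted p = 0.0225). With tumor in LAIR1KO, Plod2 changed by -2.24, Itga1 by -2.82, Colec12 by -2.09 and Sftpd by 0.52.

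In interstitial macrophage-like cells, Col14a1 was the leading chain and the one called. It was 77.6, 90.9 and 93.0 CPM in normal lungs of WT, 156, 101 and 225 in WT lungs with tumor, 191, 141 and 207 in normal lungs of LAIR1KO and 110, 120 and 99.8 in LAIR1KO lungs with tumor. WT normal values lay below those of every other group, and LAIR1KO tumor-bearing values lay below all LAIR1KO normal values. The WT normal animals are also those with Ddx3y, and the part of sex in these values cannot be told apart from the group. Col14a1 was higher in LAIR1KO than in WT normal lung by 1.06 ± 0.26 on the log2 scale (edgeR adjusted p = 0.045). In tumor-bearing lung the difference was -0.59 ± 0.22 (edgeR adjusted p = 0.574). The interaction was -1.65 ± 0.34 (95% interval -2.35 to -0.94, edgeR adjusted p = 0.015). With tumor the difference was 0.92 ± 0.24 in WT (edgeR adjusted p = 0.065) and -0.72 ± 0.24 in LAIR1KO (edgeR adjusted p = 0.395).

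Of 4 chains tested in these cells, 1 was called for genotype in normal lung and 1 for the interaction, Col14a1 in both, and none in the other 3 contrasts. Of all 7316 genes, 1.28%, 0.0137%, 1.11%, 0.0273% and 1.3% were called in the 5 contrasts. The genotype call in normal lung was lost when any 1 of the 6 animals of normal lung was left out (edgeR adjusted p from 0.069 to 0.271), and 1 LAIR1KO normal animal had 20 such cells. The interaction was lost without LAIR1KO tumor-bearing replicate 3 (-1.55, edgeR adjusted p = 0.0524), WT normal replicate 1 (-1.53, 0.0613) or LAIR1KO normal replicate 3 (-1.47, 0.0793). Fibroblast markers summed to 2.2 to 6.9 UMIs per 10000 over all groups, and without cells of another lineage's markers the interaction was -1.61 (edgeR adjusted p = 0.013).

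The class held 2 clusters that differed in Col14a1. Cluster 2 had 158 to 296 CPM and cluster 4 had 21.8 to 129 over the 12 animals. Cluster 2 made up 38.8 ± 6.9% of the class in normal lungs of WT, 56.3 ± 11.5% in WT lungs with tumor, 60.3 ± 9.7% in normal lungs of LAIR1KO and 49.9 ± 4.6% in LAIR1KO lungs with tumor (SD, n = 3 each). Within cluster 2 the interaction was -0.84 ± 0.30 (edgeR adjusted p = 0.271), and within cluster 4 it was -1.64 ± 0.55 (edgeR adjusted p = 0.304). Neither passed the test, and the part of the cluster shares in the class value was not tested. Lair1 itself was 119, 109 and 142 in WT normal and 219, 222 and 176 in WT tumor-bearing interstitial macrophage-like cells, a rise with tumor of 0.72 ± 0.15 (edgeR adjusted p = 0.023) between groups that also differ in the sex markers. Colec12 had an interaction of 1.30 ± 0.30 in these cells (edgeR adjusted p = 0.028).

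**Figure D5:**
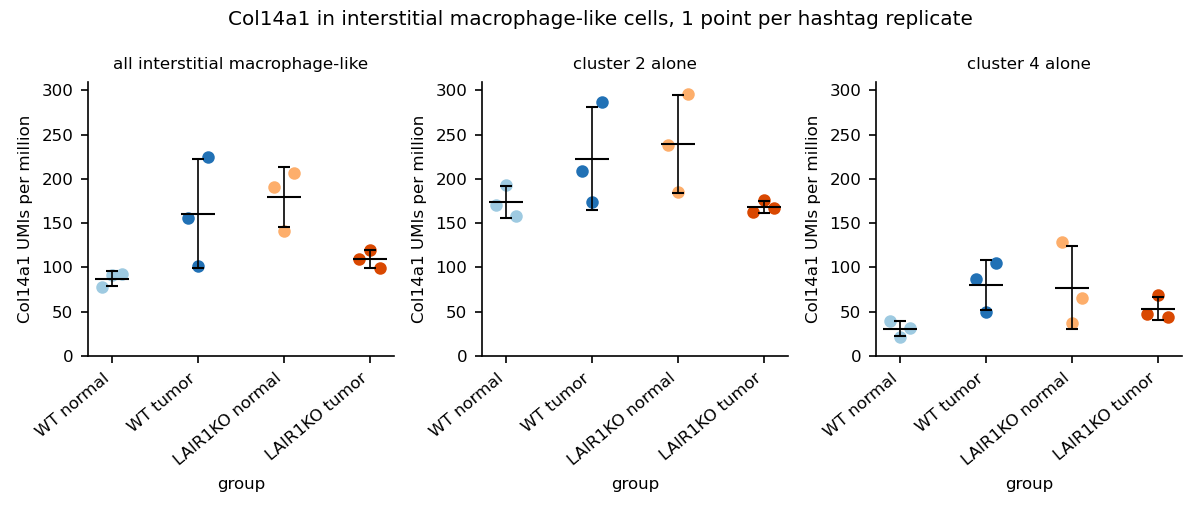
Col14a1 in CPM in all interstitial macrophage-like cells and in clusters 2 and 4 separately, by group, with 1 point per animal, a bar at the mean and whiskers of 1 SD. WT normal animals (77.6 to 93.0) sit below the other groups in the whole class, and cluster 2 sits above cluster 4 throughout.

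In the remaining classes no chain was called by edgeR or DESeq2. Monocyte-like cells had 4 chains tested, of which 1 had an unadjusted p under 0.05 (in the interaction), beside 0.115%, 0.0%, 0.115%, 0.0% and 0.0573% of all genes. Dendritic cell-like cells allowed genotype in tumor-bearing lung alone, with 0 of 10 chains called beside 0.0376% of genes and 3 chains at an unadjusted p under 0.05. Their Col1a2 was 0, 3943 and 151 CPM in LAIR1KO tumor-bearing and 7.05, 0 and 128 in WT tumor-bearing animals, so a single animal carried nearly all of it. Natural killer cell-like cells had 0 of 2 chains called in that contrast, beside 0.0% of genes, with 1 chain at an unadjusted p under 0.05. In neutrophil-, B cell-, T cell- and alveolar macrophage-like cells no chain passed the filter on low counts. The monocyte-, dendritic cell- and natural killer cell-like classes held 170, 169 and 106 assigned cells in all, so changes there were less detectable than in the larger classes.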

How the data were processed

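UMI counts per gene and hashtag counts per barcode were used as the authors deposited them, with raw counts not normalized. The submitters' processing notes name Cell Ranger 4.0.0, STAR, R 4.0.0, Seurat 3.2.0 and the mm10 build. Cells with at least 300 genes and at most 10% mitochondrial UMIs were kept. Hashtags were assigned with HTODemux (Seurat 5.3.0, quantile 0.99); doublets and cells with no hashtag were left out of the comparisons between groups. Scrublet calls were used in an alternative. Cells were scaled to 10000 UMIs for clustering by the Leiden method (leidenalg 0.10.2, scanpy 1.11.5, Python 3.11.15; 2000 variable genes without the collagen chains, 30 components, 15 neighbours, resolution 1.0). A cluster was named when at least 3 markers stood in its top 100 genes and its leading genes did not go against the name. Counts were summed per animal and class (at least 10 cells) and tested in R 4.3.3 with edgeR 4.0.16 (TMM, filterByExpr, quasi-likelihood F test, Benjamini-Hochberg over all genes, threshold 0.05). All 4 groups shared 1 estimate of spread, and nothing but the hashtags separates the animals, so p-values measure the spread between these animals. On simulated counts of fibroblast-like cells (8144 genes, LAIR1KO against WT with tumors), the test called 66 of 97 genes with a 2-fold change and 98 of 98 with a 4-fold change. For the same comparison it called 47 of 98 and 85 of 95 in endothelial cell-like cells (7087 genes), 41 of 98 and 90 of 99 in alveolar type 2-like cells (8007 genes) and 72 of 99 and 97 of 97 in interstitial macrophage-like cells (7316 genes), with 2 to 13 false calls per class. Apart from the changed genes, counts were drawn at the same rate in all groups and with the trended spread. Genes that vary more than the trend are not represented, so recovery in the real data can be lower.

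In the comparisons between groups, named chains include the 3 with the highest mean in each class described and all those past the threshold. Of each related gene list up to 3 called genes are named, and Lair1. Some chains outside this rule are also named. Among them are Col4a1, Col23a1, Col15a1 and Col28a1 in fibroblast-like cells, whose larger estimates did not pass the test. Col6a1 in the surfactant-producing cells is another. The choice of such chains was not fixed by the rule. The members and lists were chosen with earlier results of these data known.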

Additional observations from a re-analysis of the deposited data

Results flagged for a closer look

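In interstitial macrophage-like cells the Col14a1 interaction of genotype and tumor was -1.65 on the log2 scale (edgeR adjusted p = 0.015). The genotype estimate was 1.06 in normal and -0.59 in tumor-bearing lung. WT normal animals, which differ from the others in the sex markers, enter each interaction given here. The Col14a1 interaction kept its side of the threshold in 16 of 21 alternatives. Within clusters 2 and 4 the interaction did not pass (edgeR adjusted p = 0.271 and 0.304).

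In alveolar type 2-like cells the interaction was -3.19 for Col18a1 and -3.47 for Col5a2 (edgeR adjusted p = 0.0462 and 0.0488). Fibroblast markers in those cells ranged from 28.2 to 69.4 UMIs per 10000 in LAIR1KO normal animals and from 10.96 to 25.1 in WT normal animals. Without cells holding another lineage's markers the Col18a1 interaction was -2.91 ± 1.20 (edgeR adjusted p = 0.682), and Col5a2 did not pass the filter on low counts and was not tested.

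A signal outside the classes compared came from the 5 cells led by Acan and Chad, which held 637 Col2a1 UMIs, 235 Col11a1 UMIs and 72 Col9a1 UMIs. The cells came from 3 of the 4 libraries, and no comparison between groups was made on them. The sub-clustering that set them apart was chosen after seeing the data.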

How the results depend on the processing

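Some alternatives were chosen after seeing the data. These were leaving out cells that hold another lineage's markers, splitting the interstitial macrophage-like cells, and reclustering outside fibroblast- and endothelial cell-like cells. Reclustering here means resolution 0.5, or collagen chains among the clustering genes. The sub-clustering that set apart the cells led by Acan and Chad was also chosen after seeing the data. Counts below are collagen chains called by edgeR unless DESeq2 is named, and the cause of each change was not tested. The share of all genes past the same threshold is not given beside these counts. It is also not given beside the counts above with 1 animal left out or at an unadjusted p under 0.05. A change in such counts is therefore not read as particular to the chains. In fibroblast-like cells, where 0 chains were called, 1 was called for genotype in normal lung under the highest-hashtag rule, 1 each for the interaction, genotype in tumor-bearing lung and tumor in WT with no filter on low counts, and 1 each for tumor in WT and the interaction at resolution 0.5. In endothelial cell-like cells genotype in normal lung gave 2 with DESeq2, 5 at resolution 0.5, 6 with no filter, and 0 with only the groups compared or without mixed cells (those with another lineage's markers), with 0 to 7 when 1 animal was left out. Tumor in WT gave 3 with no filter and 1 with only the groups compared. Tumor in LAIR1KO gave 3 under the highest-hashtag rule and 0 without mixed cells, with 1 to 8 when 1 animal was left out. In alveolar type 2-like cells genotype in normal lung gave 4 under the highest-hashtag rule, 13 with no filter and 0 without mixed cells, with 4 to 9 when 1 animal was left out. Genotype in tumor-bearing lung gave 1 with no filter, and tumor in WT gave 6 with no filter and 1 with only the groups compared. Tumor in LAIR1KO gave 1 with DESeq2 or only the groups compared, 10 without Scrublet doublets and 0 without mixed cells, with 1 to 4 when 1 animal was left out. The interaction gave 1 with DESeq2 or the highest-hashtag rule, 8 with no filter, 7 without Scrublet doublets and 0 without mixed cells, with 0 to 5 when 1 animal was left out. In interstitial macrophage-like cells genotype in normal lung gave 0 at resolution 0.5, with collagen chains among the clustering genes, or under the highest-hashtag rule, and 0 to 0 when 1 animal was left out. The interaction gave 0 to 1 when 1 animal was left out. Tumor in WT gave 1 with DESeq2 or no filter and 0 to 1 when 1 animal was left out (1 without WT tumor-bearing replicate 2), and tumor in LAIR1KO gave 1 with no filter. Monocyte-, dendritic cell- and natural killer cell-like cells together gave 10 with no filter and 0 to 2 when 1 animal was left out (2 without WT tumor-bearing replicate 1). Fibroblast-like cells held 71.7% of chain UMIs in assigned cells, 73.7% in all filtered cells, 74.1% without Scrublet doublets, 89.2% without mixed cells and 70.3% as a mean of per-cell values. Without mixed cells the 7 endothelial chains and 5 of the 7 alveolar type 2-like chains called before were no longer tested. The Col14a1 interaction in interstitial macrophage-like cells kept its side of the threshold in 16 of 21 alternatives, and no result changed sign. No paired analysis was possible because hashtag numbers are names within a library and pair no animals across groups. Depth limits the rarest chains: 9 of 44 had under 50 UMIs.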
